A study of Mus musculus with 9 samples.

Results

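The genes of prostaglandin synthesis and sensing were examined in fibroblasts of 2 mouse liver fibrosis models and in hepatic stellate cells (HSCs). They were the 2 cyclooxygenases Ptgs1 and Ptgs2, the terminal synthases Ptges, Ptgis and Ptgds, the receptors Ptger1, Ptger2, Ptger3 and Ptger4, and the inactivating enzyme Hpgd, which make 10 of the 24453 genes in the table. They were taken by symbol, and the symbols were chosen from the pathway with results of these same 9 libraries known. Their levels and differences are therefore given as a description without a test, and tests are given for other genes of the pathway. RNA sequencing covered 3 groups of 3 libraries, all of C57BL/6J background, and the RNA of each library came from cells pooled from 3 to 5 mice. HSCs were separated by density gradient from the livers of untreated wild-type mice. CCl4-fib were sorted as CD45-GFP+ cells from Col1a2-GFP Tg mice injected with carbon tetrachloride (CCl4), a hepatotoxin, 2 times per week over 8 weeks. NASH-fib were sorted in the same way from male MC-COL mice (aged 8 weeks at the start), which carry Col1a2-GFP and lack the melanocortin 4 receptor (MC4R-KO), after 20 weeks on Western diet (WD), a regimen used to model non-alcoholic steatohepatitis (NASH). GFP was driven by the collagen α2(I) promoter, so the sort took cells in which that promoter was active, whereas HSCs were not sorted. The isolation method, the genotype and the treatment of the mice differed together with the group and cannot be told apart.

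Prostaglandins are short-lived lipid signals. A phospholipase releases arachidonic acid from membranes, a cyclooxygenase turns it into prostaglandin H2, and a terminal synthase converts this into prostaglandin E2 (PGE2), prostacyclin, prostaglandin D2 or another prostanoid. The product leaves the cell, acts on G protein-coupled receptors of the same or nearby cells, and is inactivated by oxidation. In the liver, prostanoids are known to take part in inflammation and in the regulation of stellate cell contraction and activation.

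The unit of the table is a deposited value, the number of reads on the exons of a gene scaled within each library to a common total of 4471988 to 4471995. Dividing by the value of 1 read gave the reads behind each value. HSC libraries held 3071070 to 3825522 reads on genes, CCl4-fib libraries 4687349 to 5634273 and NASH-fib libraries 3289758 to 5021156. The floor was set at 3 reads per library, which are values of 2.38 to 4.37, and a gene counts as at the floor in a group when none of its libraries holds more. A change given as at least some fold compares the mean of the higher group with the mean floor value of the lower group. Single libraries of the higher group can lie closer to the floor. Mc4r, the gene disrupted in MC-COL mice, was read 4, 13 and 0 times in the NASH-fib libraries and 0 times in the others, where it has no level to lose, and so gave no check of the genotype. Differences are log2 fold changes of log2(value + 1) with the standard error (SE) of the fit, which understate the change of low genes. The summed value of 8 quiescent stellate cell markers was 31793 to 41196 in HSC libraries, 4191 to 7147 in CCl4-fib libraries and 2126 to 4177 in NASH-fib libraries, and that of 8 activated fibroblast markers was 6764 to 12067, 50998 to 57347 and 29058 to 33282. Not every marker followed its sum. Postn, an activated marker, was at 2971 to 5577 in HSCs, 1435 to 2159 in CCl4-fib and 908 to 2353 in NASH-fib. Des, a quiescent marker, was at 32 to 302, 294 to 365 and 32.6 to 1102 in the same order. HSC libraries also held markers of hepatocytes (24673 to 46671 over 12 genes), sinusoidal endothelial cells (7907 to 16945 over 10 genes) and macrophages (4019 to 14296 over 12 genes). In CCl4-fib the same sums were 2130 to 3029, 298 to 310 and 286 to 485, with Marco at the floor, and in NASH-fib they were 8484 to 35124, 1201 to 3928 and 843 to 3077. The summed markers of neutrophils, over 9 genes, were 610, 6456 and 1292 in NASH-fib replicates 1, 2 and 3, against 50.2 to 1062 in HSCs, with Mpo and Elane at the floor, and 5.55 to 78.2 in CCl4-fib, with Ltf and Cxcr2 at the floor.

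The promoters of 4 genes are shown, because Ptgs2, Ptges and Ptger4 were at or near the floor in HSCs and were read in every fibroblast library, whereas Ptger2 went the other way. The sequences are those of RefSeq on GRCm38.p6, from 250 bases before the transcription start to the first 50 bases of the transcript, and the table held one for 8 of the 10 genes. Capitals mark matches on either strand to the TATA box TATAAA, the half-site TGACG of the cyclic AMP response element, the AP-1 motif TGANTCA, the GC box GGGCGG, the E-box CACGTG and the NF-κB consensus. The Ptgs2 promoter lies at chr1:150099781-150100080 on the plus strand, that of Ptges at chr2:30903248-30903547 on the minus strand, that of Ptger4 at chr15:5244138-5244437 on the minus strand and that of Ptger2 at chr14:44987861-44988160 on the plus strand.
Ptgs2: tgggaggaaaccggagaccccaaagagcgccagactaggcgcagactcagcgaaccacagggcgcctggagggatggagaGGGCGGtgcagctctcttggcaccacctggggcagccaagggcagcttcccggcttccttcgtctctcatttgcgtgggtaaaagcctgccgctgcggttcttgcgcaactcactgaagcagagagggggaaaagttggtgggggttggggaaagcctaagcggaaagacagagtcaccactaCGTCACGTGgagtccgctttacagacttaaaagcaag
Ptges: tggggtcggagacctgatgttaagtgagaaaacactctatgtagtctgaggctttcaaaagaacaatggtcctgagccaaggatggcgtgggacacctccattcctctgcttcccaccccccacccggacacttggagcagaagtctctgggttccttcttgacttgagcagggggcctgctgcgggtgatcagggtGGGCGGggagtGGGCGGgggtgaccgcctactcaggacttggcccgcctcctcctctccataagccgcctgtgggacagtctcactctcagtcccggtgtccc
Ptger4: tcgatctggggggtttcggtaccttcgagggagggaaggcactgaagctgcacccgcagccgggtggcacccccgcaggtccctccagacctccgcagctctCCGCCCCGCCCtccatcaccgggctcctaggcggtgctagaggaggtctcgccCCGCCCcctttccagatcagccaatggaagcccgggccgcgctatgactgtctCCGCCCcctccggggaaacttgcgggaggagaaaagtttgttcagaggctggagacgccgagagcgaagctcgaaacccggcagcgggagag
Ptger2: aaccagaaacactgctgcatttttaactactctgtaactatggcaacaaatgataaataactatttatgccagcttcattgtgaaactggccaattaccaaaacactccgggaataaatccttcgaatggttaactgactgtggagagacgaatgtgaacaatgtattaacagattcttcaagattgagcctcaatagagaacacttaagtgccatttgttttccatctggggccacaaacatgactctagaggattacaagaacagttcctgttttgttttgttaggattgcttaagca

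The Ptgs2 promoter held a GC box 170 bases before the start, and its half-site on the other strand (CGTCA, first base 14 of the transcript) overlapped an E-box that begins at base 17. The half-site occurs in 20.8% and the E-box in 7.15% of the 32851 mouse promoters of the same length. The Ptges promoter held 2 GC boxes, 53 and 42 bases before the start. The Ptger4 promoter held 4 on the other strand, 148, 143, 95 and 42 bases before the start, of which the first pair overlaps by 1 base. A GC box is found in 35.7% of promoters. The Ptger2 promoter held none of the 6 motifs and had a GC content of 37.7%, against 59.3% for Ptgs2, 60% for Ptges, 67% for Ptger4 and a median of 52.7% over all promoters. The TATA box, AP-1 and NF-κB motifs, found in 13.6%, 7.81% and 4.5% of promoters, had no match in these 4 windows. Among the windows not shown, that of Ptgds held an AP-1 and an NF-κB match, 35 and 22 bases before the start. That of Hpgd held a TATA box at base 5 of the transcript and a GC box, that of Ptger3 held GC boxes, and that of Ptgs1 held no match.

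In the comparison of each fibroblast group with HSCs, Ptgs2 and Ptges went from the floor to clearly detected levels, Ptgds, Ptger3 and Ptger4 were higher in both groups, and Ptger2 was lower in both. Ptgis and Ptgs1 were apart from HSCs in CCl4-fib and overlapped HSCs in NASH-fib. Hpgd was lower in NASH-fib than in either other group. Both comparisons use the same 3 HSC libraries and are not independent. In these bulk libraries, fewer cells that express a gene and less RNA of that gene per cell cannot be told apart.

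**Figure D1:**
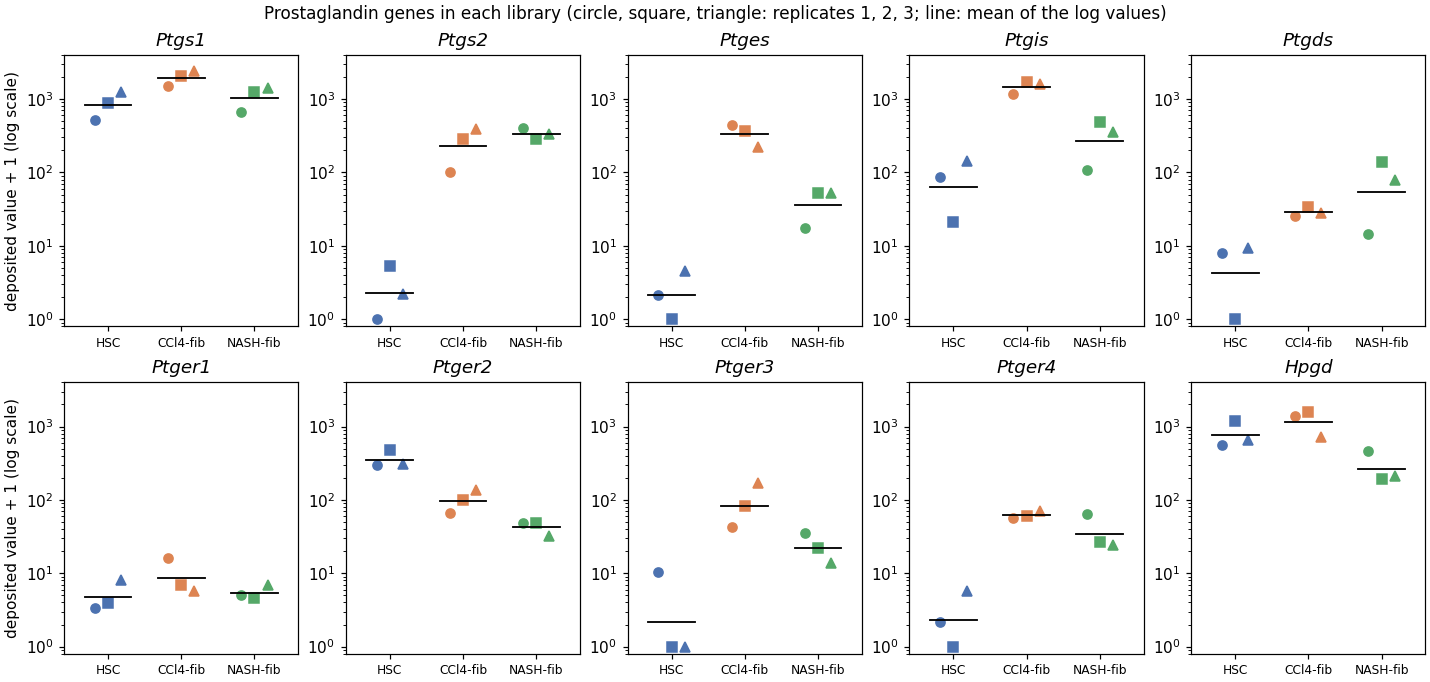
Each panel shows the deposited value + 1 of 1 gene on a log axis in the 9 libraries, with circles, squares and triangles for replicates 1, 2 and 3 and a line at the mean of the log values of each group. Ptgs2 was 285 or higher in all NASH-fib libraries and at most 4.37 in HSCs, while Ptger2 was 302 or higher in all HSC libraries and at most 134 in both fibroblast groups.

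The cyclooxygenases carry out the committed step of the pathway. Ptgs1 (NM_008969, mm10 chr2:36230426-36252271, plus strand) encodes COX-1, the form that most tissues express constitutively. Its values in replicates 1, 2 and 3, the order used for all genes, were 513, 875 and 1236 in HSC libraries, 1499, 2073 and 2417 in CCl4-fib libraries and 658, 1235 and 1413 in NASH-fib libraries. Every CCl4-fib library lay above every library of the other groups, and NASH-fib overlapped HSCs. The log2 difference was 1.25 (SE 0.43) between CCl4-fib and HSCs, 0.35 between NASH-fib and HSCs and -0.90 between NASH-fib and CCl4-fib. HSC replicate 3 was the closest to CCl4-fib. A transcript on the other strand shares 148 of the 3883 exonic bases of Ptgs1. With the day in the labels as a term in the fit, the value between CCl4-fib and HSCs was 0.71 and that between NASH-fib and HSCs -0.30.

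Ptgs2 (NM_011198, chr1:150100031-150108234, plus strand) encodes COX-2, the form induced by cytokines, growth factors and injury. It had 0, 3 and 1 reads in HSCs, which are values of 0, 4.37 and 1.2. Values were 102, 289 and 395 in CCl4-fib libraries and 401, 285 and 332 in NASH-fib libraries. All 6 fibroblast libraries lay above HSCs, and the 2 fibroblast groups overlapped. Against the floor of the HSC libraries, the level was at least 88.8-fold higher in NASH-fib, and in CCl4-fib at least 68.6-fold higher. The spread in CCl4-fib was wide, with 262 ± 149 (SD, n = 3) against 339 ± 58.3 in NASH-fib, and the log2 difference between them, 0.57 (SE 0.68), became -0.01 without CCl4-fib replicate 1.

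Levels of different genes were compared per kilobase of the length in the table. Ptgs1 was the more abundant cyclooxygenase in every library. Its mean value per kilobase was 307 in HSC libraries, 700 in CCl4-fib libraries and 386 in NASH-fib libraries, and that of Ptgs2 was 0.417, 58.9 and 76.3. Ptgs2 made up 0%, 0.319% and 0.0622% of the summed value per kilobase of the pair in HSC libraries, 4.17%, 8.21% and 9.49% in CCl4-fib libraries and 28.1%, 12.9% and 13.1% in NASH-fib libraries. The 3 groups did not overlap in this share, and the highest, in NASH-fib replicate 1, came with the lowest Ptgs1 value of its group. A list of 12 immediate-early genes, which respond to stress and to tissue dissociation, summed to 1789 to 2069 in HSC libraries, 16979 to 22169 in CCl4-fib libraries and 10755 to 17737 in NASH-fib libraries, in the same direction as Ptgs2, and its part in the Ptgs2 level was not tested. Between the fibroblast groups the neutrophil sum (5.55 to 78.2 in CCl4-fib, 610 to 6456 in NASH-fib) was higher where the Ptgs2 share was higher. Within NASH-fib, replicate 1 had the highest share and the lowest sum (610), and replicate 2 the lowest share and the highest sum (6456). The part of the neutrophil markers was not tested either.

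The terminal synthases set which prostanoid is made. Ptges (NM_022415, chr2:30889471-30903297, minus strand) encodes microsomal PGE synthase-1, the inducible enzyme that is often coupled to COX-2. It had 1, 0 and 3 reads in HSCs, or values of 1.17, 0 and 3.59. In CCl4-fib the values were 441, 369 and 219, and in NASH-fib 16.3, 50.8 and 51.1. The 3 groups did not overlap, with NASH-fib between HSCs and CCl4-fib. Against the HSC floor the level was at least 89.8-fold higher in CCl4-fib, and in NASH-fib at least 10.3-fold higher, and the log2 difference between NASH-fib and CCl4-fib was -3.20 (SE 0.69), a mean 8.71-fold lower in NASH-fib. Ptges and Ptgs2 thus differed in order, since the 2 fibroblast groups overlapped in Ptgs2 and were far apart in Ptges.

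Ptgis (NM_008968, chr2:167203196-167240537, minus strand) encodes prostacyclin synthase, an enzyme known from endothelium and smooth muscle. Values were 86.5, 20.4 and 141 in HSC libraries, 1188, 1700 and 1605 in CCl4-fib libraries and 106, 487 and 359 in NASH-fib libraries. CCl4-fib lay above both other groups in every library. NASH-fib replicate 1 fell within the range of HSCs, and the other NASH-fib libraries lay above it. The log2 difference from HSCs was 4.53 (SE 0.72) in CCl4-fib and 2.05 in NASH-fib, and that between NASH-fib and CCl4-fib was -2.48. The difference between NASH-fib and HSCs was 1.25 without HSC replicate 2, and 2.70 without NASH-fib replicate 1, when the libraries no longer overlapped. Without HSC replicate 2 the CCl4-fib difference from HSCs was 3.73, and without NASH-fib replicate 1 that between the fibroblast groups was -1.82.

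Ptgds (NM_008963, chr2:25466712-25469749, minus strand) encodes the lipocalin-type prostaglandin D synthase. It was listed at 7.01, 0 and 8.37 in HSC libraries, at 24.6, 33.2 and 26.7 in CCl4-fib libraries and at 13.6, 140 and 78.6 in NASH-fib libraries. Both fibroblast groups lay above HSCs and overlapped each other. The closest libraries of HSCs and NASH-fib, HSC replicate 3 and NASH-fib replicate 1, had only 7 and 10 reads. The log2 difference was 2.78 (SE 0.997) between CCl4-fib and HSCs, 3.70 between NASH-fib and HSCs and 0.92 between NASH-fib and CCl4-fib. NASH-fib spread the most, at 77.3 ± 63.1 (SD, n = 3), and its difference from CCl4-fib was 0.24 without its replicate 2 and 1.87 without its replicate 1, when it lay above CCl4-fib. Without HSC replicate 2, which had 0 reads, the difference from HSCs was 1.74 in CCl4-fib and 2.66 in NASH-fib, and without NASH-fib replicate 1 the latter was 4.65.

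Within a library, Ptgis had the largest value per kilobase of the 3 synthases in every case. The shares leave out other prostanoid synthases, the highest of which were Ptges3 and Akr1b3. In HSCs, CCl4-fib and NASH-fib, the mean value per kilobase of Ptges3 was 2189, 1304 and 1856. That of Akr1b3 was 449, 820 and 611, against 47.5, 861 and 182 for Ptgis. Of the sum of the 3, Ptgis made up 84.5%, 100% and 87.6% in HSCs, where few reads fell on Ptges and Ptgds. In CCl4-fib it made up 81.8%, 87.2% and 90.8%. In NASH-fib its share was 73.9%, 59.6% and 64.7%, below all libraries of the other groups. The share of Ptgds was 20.7%, 37.4% and 31% in NASH-fib against 3.7%, 3.72% and 3.3% in CCl4-fib, and that of Ptges was 5.43%, 2.97% and 4.4% against 14.5%, 9.04% and 5.93%. The synthase profiles of the 2 fibroblast groups thus did not overlap for any of the 3 enzymes. The 3 shares sum to 100% in a library and are not independent. For Ptges the gap was narrow, from 5.43% in NASH-fib replicate 1, with 12 Ptges reads, to 5.93% in CCl4-fib replicate 3. Sums of markers of smooth muscle (83 to 133 in HSC libraries, 2893 to 13680 in CCl4-fib libraries and 3485 to 20343 in NASH-fib libraries, with Cnn1 and Lmod1 at the floor in HSCs), portal fibroblasts (125 to 185, 7900 to 10053 and 5675 to 11315, with Pi16 and Clec3b at the floor in HSCs) and mesothelial cells (97.6 to 534, 9156 to 15893 and 4962 to 17879) were also higher in both fibroblast groups, and their part in the synthase levels was not tested.

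**Figure D2:**
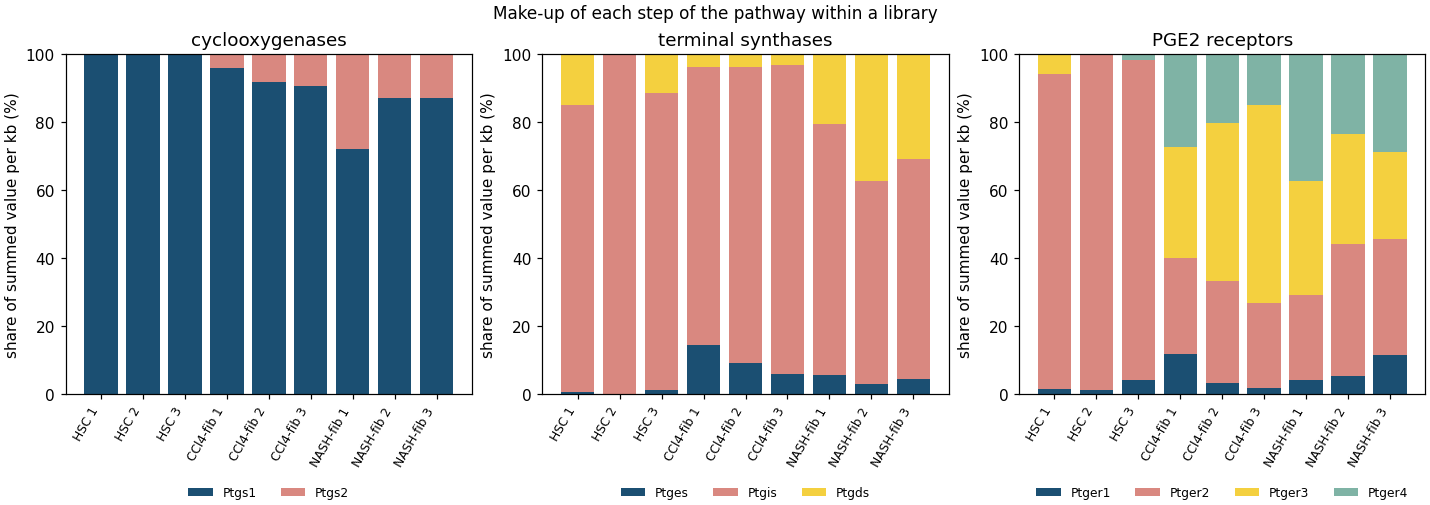
Stacked bars give the share of each gene in the summed value per kilobase within each library, in percent. The sets are the cyclooxygenases, the terminal synthases Ptges, Ptgis and Ptgds, and the PGE2 receptors. Ptger2 made up 92.9% or more of the receptors in HSCs and at most 38.9% in the fibroblast libraries, and Ptgds made up 20.7% or more of the synthases in NASH-fib against at most 3.72% in CCl4-fib.

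The PGE2 receptors differ in their signalling. EP2 and EP4 raise cyclic AMP, EP3 lowers it and EP1 acts through calcium. Ptger2 (NM_008964, chr14:44988111-45003820, plus strand) encodes EP2. Values were 302, 475 and 307 in HSC libraries, 65.9, 97.8 and 134 in CCl4-fib libraries and 47.6, 48.1 and 31.5 in NASH-fib libraries. The 3 groups did not overlap, with HSCs the highest and NASH-fib the lowest. The mean level was 3.65-fold lower in CCl4-fib and 8.52-fold lower in NASH-fib than in HSCs, with log2 differences of -1.88 (SE 0.41) and -3.05. Between NASH-fib and CCl4-fib the log2 difference was -1.17, and it was -0.93 without CCl4-fib replicate 3. Antisense and overlapping transcripts share 246 and 144 of its 5193 exonic bases, and reads were counted on either strand.

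Ptger4 (NM_001136079, chr15:5233399-5244187, minus strand) encodes EP4, the other receptor that raises cyclic AMP. It had 1, 0 and 4 reads in HSCs, or values of 1.17, 0 and 4.78, against 56.4, 58.7 and 70.6 in CCl4-fib libraries and 62.5, 25.8 and 23.6 in NASH-fib libraries. All fibroblast libraries lay above HSCs, and the 2 fibroblast groups overlapped through NASH-fib replicate 1. The log2 difference from HSCs was 4.75 (SE 0.71) in CCl4-fib and 3.90 in NASH-fib. Without NASH-fib replicate 1 the difference between NASH-fib and CCl4-fib moved from -0.85 to -1.29, and the groups were apart.

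Ptger3 (NM_011196, chr3:157566892-157644758, plus strand) encodes EP3. It was listed at 9.35, 0 and 0 in HSC libraries, at 41.3, 81.7 and 167 in CCl4-fib libraries and at 34, 21.4 and 12.8 in NASH-fib libraries. The 3 groups did not overlap, and CCl4-fib was the highest. The log2 difference from HSCs was 5.26 (SE 0.94) in CCl4-fib and 3.34 in NASH-fib, and that between NASH-fib and CCl4-fib was -1.92. The closest libraries of the fibroblast groups, CCl4-fib replicate 1 and NASH-fib replicate 1, had 52 and 25 reads. Those of HSCs and NASH-fib, HSC replicate 1 and NASH-fib replicate 3, had 8 and 13 reads. Whether the libraries of the fibroblast groups were apart depended on the scaling, as given with the counts below. The log2 difference itself stayed between -2.415 and -1.42 over the alternatives.

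Ptger1 (NM_013641, chr8:83666640-83670103, plus strand), which encodes EP1, had at most 19 reads in any library and did not pass the filter on low counts. Its values were 2.34, 2.91 and 7.17 in HSC libraries, 15.1, 5.95 and 4.77 in CCl4-fib libraries and 4.08, 3.56 and 5.9 in NASH-fib libraries, and all groups overlapped. With so few reads, counted on either strand, the level of this gene is uncertain.

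The receptor that led by value per kilobase differed among the groups. Ptger2 made up 92.9%, 98.9% and 94.4% of the 4 receptors in HSC libraries, 28.1%, 29.8% and 25% in CCl4-fib libraries and 25.1%, 38.9% and 33.9% in NASH-fib libraries. Ptger3 made up 33%, 46.6% and 58.4% in CCl4-fib, the largest share in each of those libraries, and 33.6%, 32.3% and 25.8% in NASH-fib. Ptger4 made up 27.3%, 20.3% and 15% in CCl4-fib libraries and 37.4%, 23.6% and 28.8% in NASH-fib libraries. In NASH-fib the mean values per kilobase of Ptger2, Ptger3 and Ptger4 were 11.3, 11.3 and 11.2, and in HSCs 96, 1.55 and 0.597. The HSC profile thus held mainly EP2 transcripts, and the NASH-fib profile held EP2, EP3 and EP4 transcripts at like levels. The summed markers of quiescent stellate cells, hepatocytes, sinusoidal endothelial cells and macrophages were highest on average in HSCs, as Ptger2 was, and their part in its level was not tested.

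Hpgd (NM_008278, chr8:56294552-56321046, plus strand) encodes 15-hydroxyprostaglandin dehydrogenase, which starts the breakdown of PGE2 and other prostaglandins. Values were 561, 1172 and 659 in HSC libraries, 1389, 1575 and 725 in CCl4-fib libraries and 458, 191 and 211 in NASH-fib libraries. Every NASH-fib library lay below every library of the other groups, and HSCs and CCl4-fib overlapped. The mean level was 2.78-fold lower in NASH-fib than in HSCs, with a log2 difference of -1.51 (SE 0.47), and 4.29-fold lower than in CCl4-fib, with a log2 difference of -2.14. Between CCl4-fib and HSCs the log2 difference was 0.62. The NASH-fib library closest to HSCs was again replicate 1. The summed hepatocyte markers, at 27750, 8484 and 35124 in NASH-fib replicates 1, 2 and 3, were above the 2130 to 3029 of CCl4-fib and overlapped the 24673 to 46671 of HSCs, and their part in the Hpgd level was not tested.

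NASH-fib replicate 1 stood apart from the other libraries of its group in several of these genes. It had the lowest Ptgs1, Ptges, Ptgis and Ptgds values and the highest Ptgs2, Ptger3, Ptger4 and Hpgd values of NASH-fib, at 3289758 reads the fewest of the group. HSC replicate 2, at 3071070 reads also the fewest of its group, had the lowest Ptgis and Ptgds and the highest Hpgd of HSCs. At the floor, its Ptges was the lowest and its Ptgs2 the highest. Its Ptgs1 was not the lowest, however, and its Ptger4 was the lowest rather than the highest. Libraries of all 3 groups carried the same day in the labels only for HSC replicate 2, CCl4-fib replicate 1 and NASH-fib replicate 1. Among those 3, Ptgs2 was 4.37, 102 and 401, Ptges 0, 441 and 16.3, Ptger2 475, 65.9 and 47.6, Ptger4 0, 56.4 and 62.5 and Hpgd 1172, 1389 and 458. With 1 library per group no spread could be given within that day.

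**Figure D3:**
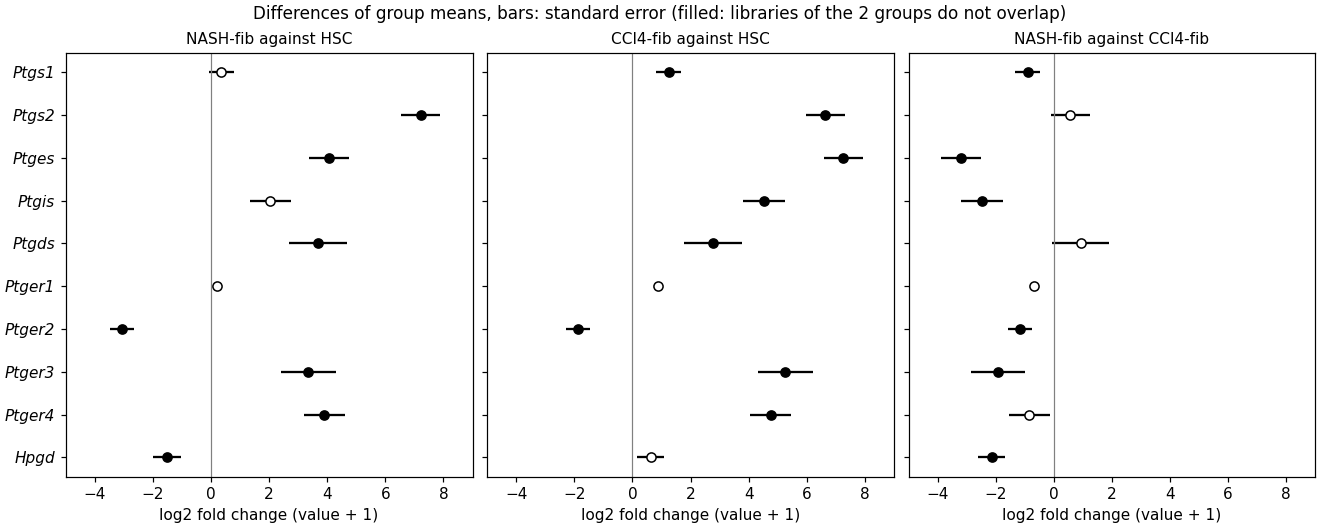
Points give the difference of mean log2(value + 1) for each gene in the 3 comparisons and bars the standard error of the fit, with filled points where no library of one group reaches the range of the other. Ptger1, which did not pass the filter, has no bar. Ptgs2, Ptges, Ptgds, Ptger3 and Ptger4 lie to the right of 0 and Ptger2 to the left in both comparisons with HSCs, and no filled point lies to the right of 0 between NASH-fib and CCl4-fib.

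Counted over all 10 genes, 5 were at least 2-fold higher in NASH-fib than in HSCs with libraries that did not overlap (Ptgs2, Ptges, Ptgds, Ptger3 and Ptger4), and 2 were lower (Ptger2 and Hpgd). Over the 13651 genes that passed the filter, 11% were higher and 8.7% lower by the same rule. Between CCl4-fib and HSCs, 7 genes were higher (the same 5 with Ptgs1 and Ptgis) and 1 was lower (Ptger2), against 24.4% and 15.8% of all genes. For NASH-fib against CCl4-fib, 0 were higher and 5 lower (Ptges, Ptgis, Ptger2, Ptger3 and Hpgd), against 11.2% and 18.1% of all genes. Of the 10 genes, 9 passed the filter. Since the genes were chosen with these contrasts known, nothing is read from the counts beside the shares. The median log2 difference of the 10 genes was 2.69, 3.65 and -1.04 in the 3 comparisons, and that of all genes tested was -0.02, 0.18 and -0.11, or 0.04, 0.07 and 0.07 after scaling by the trimmed mean of M-values (TMM).

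Leaving out 1 library moved these counts as follows. Ptgis joined the genes higher in NASH-fib than in HSCs without HSC replicate 3 or NASH-fib replicate 1, which made 6. Between CCl4-fib and HSCs, Ptgs1 left the list without HSC replicate 1 and Ptger1 joined it without HSC replicate 3, giving 6 and 8. Between NASH-fib and CCl4-fib, Ptgds became the 1 gene higher without NASH-fib replicate 1. The genes lower in that comparison numbered 6 without CCl4-fib replicate 1 or NASH-fib replicate 2 (Ptgs1 joined) and without NASH-fib replicate 1 (Ptger4 joined), and 4 without CCl4-fib replicate 3 (Ptger2 left). Without NASH-fib replicate 3 there were again 5, with Ptgs1 in place of Ptger2. The scaling mattered most for this comparison, as TMM left 3 genes lower (Ptges, Ptgis and Hpgd), and both Ptger2 and Ptger3 then fell short of the rule. The edgeR and DESeq2 fits on the recovered reads left 4 lower, without Ptger3. With the day in the labels as a term, Ptgs1 left the genes higher in CCl4-fib than in HSCs, which made 6, and joined those lower in NASH-fib than in CCl4-fib, which also made 6.

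To place these genes in the wider pathway, 45 other genes of arachidonate release, prostanoid synthesis, reception, transport and inactivation and of the leukotriene branch were examined, of which 30 passed the filter. They were tested with limma on log2(value + 1), with Benjamini-Hochberg adjustment of p across 13651 genes, and called at an adjusted p under 0.05 and at least a 2-fold change. The lists were written with earlier results of these libraries known. Nothing in the labels says whether the libraries of a group came from separate pools of mice, so p-values measure the spread between these libraries. Between NASH-fib and HSCs, 4 genes rose (Pla2g4a, Akr1c18, Ptgfr and Ptgfrn) and 1 fell (Alox12), against 8.23% and 4.3% of all genes tested. Between CCl4-fib and HSCs, 8 rose and 6 fell, against 16.2% and 11.7%. Between NASH-fib and CCl4-fib, 2 were higher and 3 were lower, against 4.97% and 5.66%. This last split depended on the scaling, with 4 higher and 2 lower by TMM, and edgeR's quasi-likelihood test called 3 and 1. With the day in the labels as a term, the NASH-fib calls of Pla2g4a, Akr1c18 and Alox12 against HSCs were lost (limma adjusted p = 0.0889, 0.0941 and 0.197). The same term ended the CCl4-fib calls of Hpgds, Tbxas1, Ptgr1, Alox12 and Cysltr2 against HSCs (limma adjusted p = 0.0881, 0.0819, 0.0582, 0.153 and 0.0886) and all 5 calls between NASH-fib and CCl4-fib.

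Ptgfr, the receptor for prostaglandin F2α, had the smallest adjusted p of the pathway genes in both comparisons with HSCs. It had 0 reads in all HSC libraries, values of 75.4, 84.2 and 108 in CCl4-fib libraries and 122, 39.2 and 98.3 in NASH-fib libraries. Against the HSC floor it was at least 23.3-fold higher in CCl4-fib, and in NASH-fib at least 22.7-fold higher (limma adjusted p = 3.88e-05 and 6.37e-05). A transcript on the other strand shares 227 of its 4568 exonic bases. Ptgfrn, whose product binds that receptor and inhibits it, was at 30.4, 32 and 14.4 in HSC libraries, 384, 494 and 518 in CCl4-fib libraries and 231, 297 and 188 in NASH-fib libraries. Its log2 fold change from HSCs was 4.20 (SE 0.41, limma adjusted p = 6.87e-05) in CCl4-fib and 3.23 (limma adjusted p = 4.81e-04) in NASH-fib. Akr1c18, an aldo-keto reductase that can act on prostaglandins, had 0 reads in HSCs, values of 23, 37.4 and 70.6 in CCl4-fib libraries and 47.6, 6.23 and 26.5 in NASH-fib libraries. Its group means were at least 11.4-fold and 7.01-fold higher (limma adjusted p = 7.43e-04 and 0.00357), and NASH-fib replicate 2 held only 7 reads. Ptgir, the prostacyclin receptor, was at 22.2, 32 and 12 in HSC libraries, 163, 64.6 and 24.8 in CCl4-fib libraries and 61.2, 240 and 101 in NASH-fib libraries, and missed the threshold between NASH-fib and HSCs (log2 difference 2.42, SE 0.74, limma adjusted p = 0.0584).

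Of 5 phospholipase genes tested, Pla2g4a, the cytosolic enzyme that releases arachidonic acid, was at 168, 220 and 145 in HSC libraries, 548, 428 and 628 in CCl4-fib libraries and 1324, 446 and 633 in NASH-fib libraries. It rose by a log2 fold change of 2.04 (SE 0.42, limma adjusted p = 0.0090) in NASH-fib and 1.59 (limma adjusted p = 0.0188) in CCl4-fib. The second call was lost without HSC replicate 1, CCl4-fib replicate 1 or CCl4-fib replicate 3, with adjusted p from 0.0564 to 0.0680. Pla2g6, a calcium-independent phospholipase, was higher in CCl4-fib, at 115, 115 and 104, than in HSCs, at 8.18, 2.91 and 33.5 (log2 fold change 3.39, limma adjusted p = 0.0125). In NASH-fib it was at 4.08, 24.9 and 7.86, lower than in CCl4-fib by -3.41 (limma adjusted p = 0.0297). The secreted Pla2g2e had 0 reads in HSCs and was at 37.3, 24.7 and 13.4 in CCl4-fib, at least 6.57-fold higher (limma adjusted p = 0.00303), and at 0, 7.13 and 1.97 in NASH-fib (limma adjusted p = 0.0484 against CCl4-fib). Pla2g12a, another secreted enzyme, was at 58.5 to 80.1 in HSC libraries, 34.9 to 49.6 in CCl4-fib libraries and 26.5 to 44.5 in NASH-fib libraries, and no comparison passed the test. The Pla2g2e call between the fibroblast groups was lost in 15 of 19 alternatives and the Pla2g6 call in 7, in both cases also without any one of the CCl4-fib libraries or NASH-fib replicate 1 or 3, and for Pla2g2e without any one of the HSC libraries.

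Among the other synthases, Hpgds, the haematopoietic prostaglandin D synthase, was at 18.7, 37.9 and 32.3 in HSC libraries, 1.59, 11.1 and 2.86 in CCl4-fib libraries and 58.5, 21.4 and 104 in NASH-fib libraries. Tbxas1, thromboxane synthase, was at 24.6, 21.8 and 25.1 in HSC libraries, 7.14, 0.85 and 0 in CCl4-fib libraries and 12.2, 17.8 and 42.3 in NASH-fib libraries. Both fell in CCl4-fib against HSCs (log2 fold change -2.57 and -3.33, limma adjusted p = 0.0285 and 0.0125) and were higher in NASH-fib than in CCl4-fib (3.39 and 3.16, limma adjusted p = 0.0232 and 0.0360). The summed macrophage markers followed the same order between the fibroblast groups, 286 to 485 in CCl4-fib and 843 to 3077 in NASH-fib, with 4019 to 14296 in HSCs, as did the neutrophil sum, and the part of neither was tested. Fam213b, a prostamide and prostaglandin F synthase, was at 28.1, 17.5 and 34.7 in HSC libraries, 110, 82.5 and 56.3 in CCl4-fib libraries and 5.44, 33.8 and 7.86 in NASH-fib libraries. It was called lower in NASH-fib than in CCl4-fib (log2 fold change -2.69, limma adjusted p = 0.0314). These 3 calls between the fibroblast groups were lost in 5 (Hpgds), 11 (Tbxas1) and 8 (Fam213b) of the 19 alternatives, in each case also without CCl4-fib replicate 3, NASH-fib replicate 1 or NASH-fib replicate 3. The same held without CCl4-fib replicate 1 for Hpgds and Fam213b, without CCl4-fib replicate 2 for Tbxas1 and Fam213b, and without HSC replicate 1 or NASH-fib replicate 2 for Tbxas1. The Hpgds call against HSCs was lost without HSC replicate 2 or 3 or CCl4-fib replicate 1 or 3, and both the Hpgds and the Tbxas1 call against HSCs with the day term.

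Of the 6 genes of transport and inactivation tested, Abcc4, an efflux transporter of prostaglandins, fell in CCl4-fib, from 113, 115 and 134 in HSCs to 11.9, 11.9 and 25.8 (log2 fold change -2.88, SE 0.48, limma adjusted p = 0.00156), and was at 31.3, 53.4 and 62.9 in NASH-fib. Ptgr1, a prostaglandin reductase that acts after Hpgd, rose in CCl4-fib, from 50.3, 32 and 75.3 to 194, 232 and 243 (log2 fold change 2.14, limma adjusted p = 0.0227), and was at 63.9, 318 and 276 in NASH-fib, a call that was lost without any one of the CCl4-fib libraries or without HSC replicate 1 or 2, and with the day term. Ptgr2, the other reductase, was at 265 to 368 in HSC libraries, 320 to 422 in CCl4-fib libraries and 476 to 698 in NASH-fib libraries, and no comparison passed the test. In the lipoxygenase branch, Alox12 was at 56.1, 36.4 and 70.5 in HSC libraries, 8.73, 9.36 and 3.82 in CCl4-fib libraries and 1.36, 8.91 and 0 in NASH-fib libraries, and fell in NASH-fib (log2 fold change -4.22, SE 0.84, limma adjusted p = 0.00679) and in CCl4-fib (-2.77, limma adjusted p = 0.0320). The second of these calls was lost without any one of the HSC or CCl4-fib libraries, and both with the day term. Alox15 rose in CCl4-fib, from 0, 2.91 and 15.5 to 100, 108 and 58.2 (log2 fold change 4.43, limma adjusted p = 0.00432), and was at 12.2, 12.5 and 23.6 in NASH-fib. The leukotriene receptors Cysltr1 and Cysltr2 fell in CCl4-fib, from 302, 772 and 226 to 87.3, 57.8 and 9.54 and from 11.7, 26.2 and 19.1 to 0.79, 5.95 and 0 (log2 fold change -3.31 and -3.04, limma adjusted p = 0.0147 and 0.0225). Both calls were lost without HSC replicate 2, and that of Cysltr2 also without HSC replicate 3, CCl4-fib replicate 1 or CCl4-fib replicate 3 and with the day term. In NASH-fib, Cysltr1 was at 126, 74.8 and 27.5 and Cysltr2 at 4.08, 10.7 and 2.95. Both were also lower than in HSCs but not called (log2 difference -2.53 and -1.63, limma adjusted p = 0.0821 and 0.3055). Neither was called between the fibroblast groups. The summed macrophage and sinusoidal endothelial markers were likewise lower in both fibroblast groups than in HSCs, and their part was not tested.

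**Figure D4:**
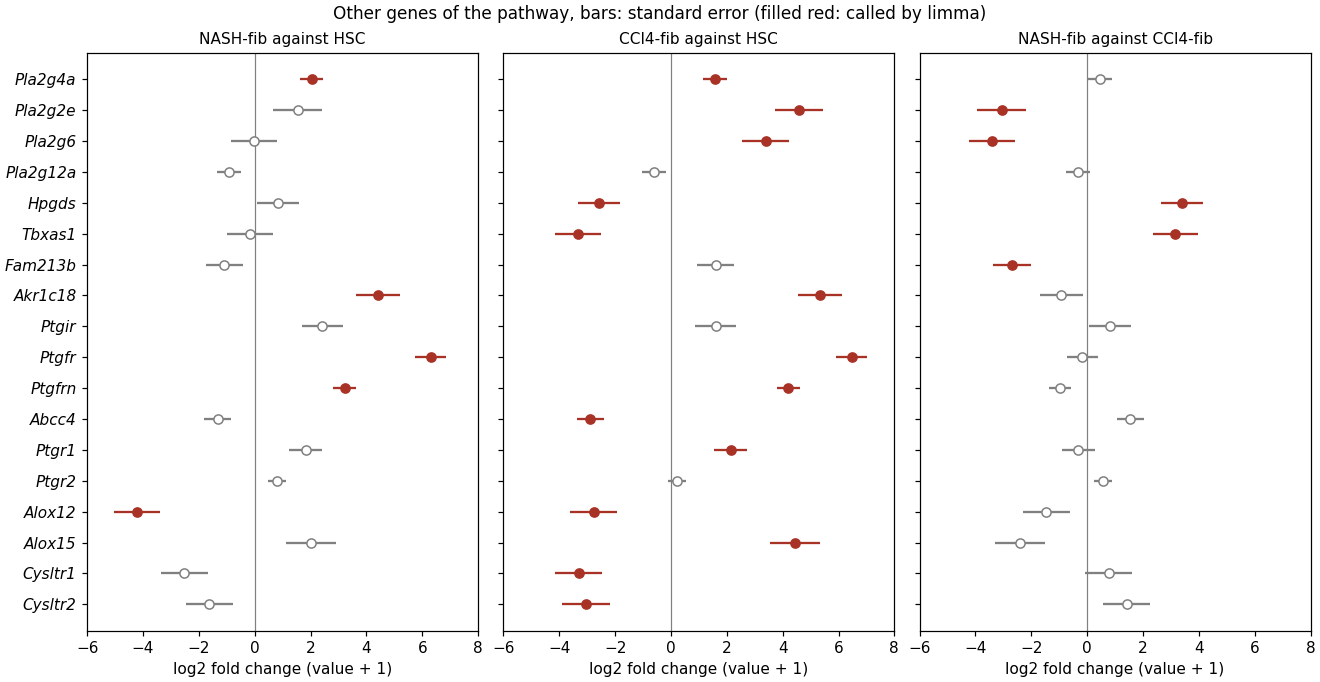
Points give the log2 fold change of 18 other pathway genes in the 3 comparisons and bars its standard error, with filled red points for genes called by limma at an adjusted p under 0.05 and at least a 2-fold change. Ptgfr, Ptgfrn, Akr1c18 and Pla2g4a are called higher in both fibroblast groups than in HSCs, and Hpgds and Tbxas1 are called lower in CCl4-fib than in HSCs and higher in NASH-fib than in CCl4-fib.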

How the data were processed

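RNA sequencing covered 9 libraries, 3 in each of the groups HSC, CCl4-fib and NASH-fib. The authors amplified the RNA with the SMARTer kit, aligned single-end reads to mm10 with STAR and counted reads of either strand on RefSeq exons with HOMER, keeping no more than 3 reads at a position and 1 entry for each gene. The values deposited by the authors are a signal, these counts after a normalization for DESeq2 over 10 libraries, of which 9 are analysed here. They sum to between 4471988 and 4471995 in every library, and 100% of them were whole reads (tolerance 0.01 in value units) after division by the value of 1 read. All 9 columns of values in the table were used.

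Genes were kept by filterByExpr of edgeR 4.0.16 (minimum count 10 on the recovered reads), which left 13651 of 24453. The fit was limma 3.58.1 with a trend on log2(value + 1) (pseudocount 1), 1 fit over the 3 groups, in R 4.3.3, and it was tested on simulated data. Genes were called at a Benjamini-Hochberg adjusted p under 0.05 and at least a 2-fold change. The 10 genes and the pathway lists were chosen with earlier results of these data known. Outside the 10 genes, those named were every list gene called in at least 1 comparison and, for lists with under 4 such genes, the 2 with the highest value per kilobase. Ptges3 and Akr1b3 were named as well, beside the synthase shares. Marker genes and overlapping transcripts were given beside the results they touch. Exon overlaps came from GENCODE on GRCm38 (1 result is not reported here) and promoters from RefSeq, which had none for Ptgis and Ptger1. Alternatives were edgeR's quasi-likelihood test and DESeq2 1.42.0 on the recovered reads, TMM scaling, no filter, an average RPKM over 100, pseudocounts of 4 and 0.25, a fit on the 2 groups compared, the replicate number as a block, the day in the labels as a term, and each library left out in turn.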

Additional observations from a re-analysis of the deposited data

How the results depend on the processing

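The direction of the differences of the 10 genes held in 543 of 546 values over the alternatives. The exceptions were Ptgs1 between NASH-fib and HSCs (-0.30 with the day term), Ptger1 there (-0.06 without HSC replicate 1) and Ptgs2 between NASH-fib and CCl4-fib (-0.01 without CCl4-fib replicate 1). Part of the 546 values equal the main value by design and could not change direction. These include the values with no filter, with the replicate block, with the fit on the 2 groups and without a library of the group not compared. An average RPKM over 100 kept only Ptgs1 and Hpgd of the 10 genes, so that against HSCs 0 were higher and 1 lower in NASH-fib, 1 higher and 0 lower in CCl4-fib than in HSCs and 1 lower in NASH-fib than in CCl4-fib. This filter removed every pathway gene called in the main fit, so its 0 calls in every comparison say nothing about those genes. TMM scaling left 3 of the 10 genes lower in NASH-fib than in CCl4-fib, and edgeR and DESeq2 each left 4.

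Of the pathway genes, the day term left 2 higher and 0 lower in NASH-fib than in HSCs, 7 higher and 3 lower in CCl4-fib than in HSCs, and 0 higher and 0 lower in NASH-fib than in CCl4-fib. DESeq2 called 2 lower in NASH-fib than in HSCs and 5 higher in NASH-fib than in CCl4-fib. In that last comparison, TMM called 4 higher, a pseudocount of 0.25 and the fit on 2 groups 1 each, and edgeR 1 lower. The deviations of same-numbered libraries had correlations from -0.47 to 0.51, without a common sign. Replicates 1 of CCl4-fib and NASH-fib also shared the day in the labels, as did their replicates 3. The fit with the replicate block called 2 lower in NASH-fib than in HSCs, and 1 higher and 0 lower in NASH-fib than in CCl4-fib. The cause of these changes was not tested.

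With 1 library left out, the pathway genes lower in CCl4-fib than in HSCs ranged from 3 to 7, and those higher from 6 to 9. Those in NASH-fib against HSCs ranged from 4 to 6 higher and 1 to 2 lower, and those in NASH-fib against CCl4-fib from 0 to 3 higher and 0 to 4 lower. Among the 10 genes, the count for NASH-fib over HSCs was 5 to 6, that for CCl4-fib over HSCs 6 to 8, and NASH-fib had 0 to 1 higher and 4 to 6 lower than CCl4-fib. Depth limits the HSC values of Ptgs2, Ptges, Ptgds, Ptger3 and Ptger4, which rest on at most 8 reads per library.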
